A study of Rattus norvegicus with 9 samples.

Results

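To determine how the handling of iron and heme changed in the injured dorsal root ganglion (DRG), 9 genes were followed through the deposited RNA-Seq values: Tfrc, Slc40a1, Slc11a2, Fth1, Cp, Hamp, Lcn2, Hp and Hpx. The 9 genes were chosen by symbol, with earlier results of these data known, and are 9 of the 20194 genes in the expression table. They were compared among 3 sham, 3 SNI and 3 SNI + G15 libraries of male Sprague Dawley rats. SNI is spared nerve injury, a neuropathic pain model in which part of the sciatic nerve is cut, and G15 is an antagonist of the G protein-coupled oestrogen receptor GPER. Intrathecal catheters were placed on SNI day 5 and drugs were given through them over 24 h in DMSO, at 2% by the labels and at a lower concentration by the methods of the study, and the sham and SNI samples are labelled as the controls of the G15 samples. By the methods of the study the DRGs were ipsilateral and came from several rats a group, but the labels do not say which library came from which rat, so p-values measure the spread between these libraries. No genotype other than the strain, and no age, is given in the labels.

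The labels' extraction protocol names macrophages, whereas their tissue field names DRG, so the tissue was checked against its markers. All 8 neuronal markers fixed for this work (Rbfox3, Tubb3, Prph and others) were at an FPKM of 1 or more in every group, and their summed FPKM lay between 10622 and 11835 in all 9 libraries. FPKM is the number of fragments per kilobase of transcript, scaled to library size, so levels of different genes can be compared with it. Total estimated reads lay between 18484557 and 18756736 per library. SNI + G15 replicate 3 stood apart from its group, with a mean chi-square per gene of 8.93 and 9.24 against replicates 2 and 1, which differed from each other by 3.29. In whole-tissue RNA, more cells of a type and more RNA per cell cannot be told apart.

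Cells take up iron bound to transferrin through the transferrin receptor (Tfrc), move it out of endosomes through the divalent metal transporter (Slc11a2), store it in ferritin (Fth1 is its heavy chain) and release it through ferroportin (Slc40a1). The ferroxidase ceruloplasmin (Cp) helps exported iron to load onto transferrin, and hepcidin (Hamp), a peptide hormone made mainly in liver and raised by bone morphogenetic protein (BMP) signals and by interleukin-6, binds ferroportin and leads to its degradation. Lipocalin 2 (Lcn2) binds bacterial siderophores and their iron, haptoglobin (Hp) binds free haemoglobin and haemopexin (Hpx) binds free heme, and these 3 are acute phase proteins.

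The DNA just before the start of Hamp and Lcn2 is shown because both genes rose after injury and the factors whose motifs are marked are known to act on them. Sequences are from RefSeq, build GRCr8, which may differ from the build of the deposited values, and are given 5′ to 3′ on the strand of the gene. The Hamp stretch is chr1:95300272-95300521, minus strand, the 250 bases before the start of the gene, and the Lcn2 stretch is chr3:36081852-36082030, minus strand, from 250 to 72 bases before its start. Capitals mark, in Hamp, a BMP-response motif GGCGCC and a STAT palindrome TTCNNNGAA, and in Lcn2, a C/EBP motif TTGCNNAA and NF-kB motifs GGGNNNNNCC.
Hamp: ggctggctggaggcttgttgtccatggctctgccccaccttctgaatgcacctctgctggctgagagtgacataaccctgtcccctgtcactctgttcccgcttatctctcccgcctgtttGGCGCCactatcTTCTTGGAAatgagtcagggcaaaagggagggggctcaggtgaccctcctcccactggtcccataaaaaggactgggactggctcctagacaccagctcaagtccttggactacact
Lcn2: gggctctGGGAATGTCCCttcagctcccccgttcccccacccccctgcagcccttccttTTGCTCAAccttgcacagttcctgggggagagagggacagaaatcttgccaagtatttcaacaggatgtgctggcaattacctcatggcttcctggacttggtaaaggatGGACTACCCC

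Motif letters were searched on both strands in windows from 250 bases before to 50 after the start, of which RefSeq had 8 for 7 of the 9 members and 33469 in all. The Hamp window held the STAT letters 117 bases before the start, and 8.87% of all windows held them. It held GGCGCC 129 bases before the start, as 11% of all windows did, and this motif was added after the data were seen. The C/EBP letters, found in 10.6% of all windows, stood 191 bases before the start of Lcn2, 72 before that of Cp and 200 before that of Hpx. NF-kB letters are in 47.3% of windows and were in those of 5 members, with overlapping matches 243 and 242 bases before the Lcn2 start and another at 81. The HIF core, ACGTG or GCGTG, was in 41.6% of all windows and in those of Tfrc and Slc11a2. CAGTG, the loop letters of iron-responsive elements, was searched in the sense strand of the 50 transcribed bases alone. It was in 7.39% of windows and in none of the 8 member windows. Fth1 and Hp had no window, and transcribed bases beyond these 50 were not searched. Whether the members hold such elements therefore cannot be read from this search. A match is only these letters in this window.

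**Figure D1:**
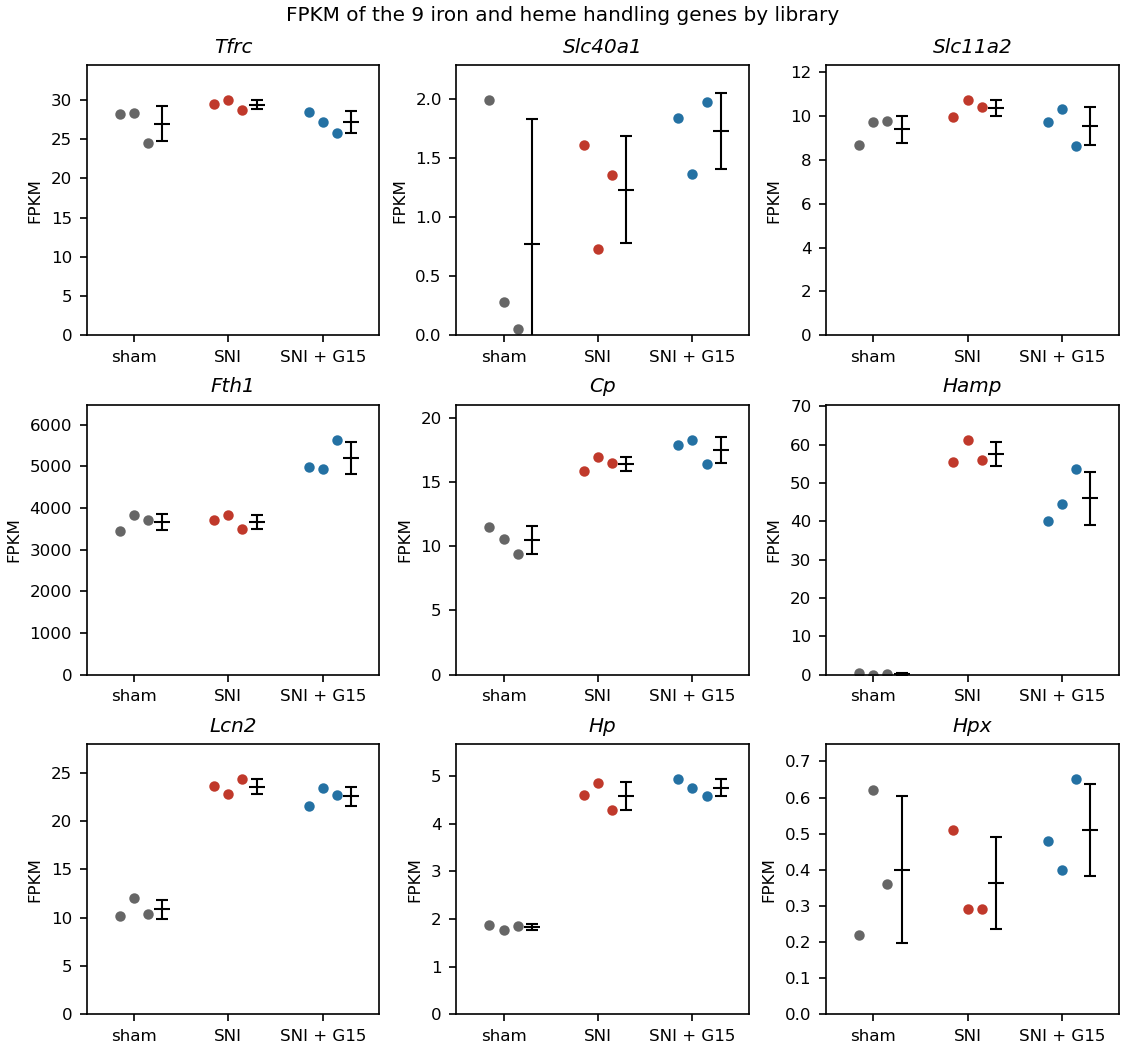
FPKM of the 9 members (vertical axes, each from 0) in the 3 sham, 3 SNI and 3 SNI + G15 libraries; points are libraries and the bar beside them is the mean ± SD, cut off at 0 for Slc40a1 in sham. Hamp, Cp, Lcn2 and Hp are higher in every SNI library than in every sham library, and Fth1 is higher in every SNI + G15 library than in any other.

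The question of the first comparison was what nerve injury did to these genes. Of the 9 members, 8 reached 1 FPKM in at least 1 library and entered the main test, and Hpx did not. In SNI against sham, 4 of the 8 rose and none fell (edgeR quasi-likelihood test, adjusted p below 0.05), and at an unadjusted p below 0.05 or with DESeq2 or limma the counts were also 4 and 0. Among all 14305 genes tested, 23.3% rose and 22.4% fell. The 4 that rose were Hamp, Hp, Lcn2 and Cp, and the median log2 fold change of the 8 was 0.64, beside 0.00102 for all genes tested. Hamp entered the test only through the injured libraries, with at most 0.33 FPKM in sham. Because the members were chosen with earlier results known, these shares describe the list and test nothing about it.

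Hamp was close to absent in sham DRG and readily detected after injury. Its estimated read counts were 2, 0 and 1 in sham, 340, 376 and 342 in SNI, and 245, 271 and 332 in SNI + G15. Sham libraries averaged 0.163 ± 0.165 FPKM (SD, n = 3), SNI libraries 57.6 ± 3.18 FPKM (SD, n = 3) and SNI + G15 libraries 46.1 ± 6.91 FPKM (SD, n = 3). No SNI library overlapped with sham. The share of all genes that separate in this way was not counted, so here and below separation is a description. With 3 reads in sham in all, the ratio of read counts, scaled to depth, was 353 for SNI over sham, with an exact 95% interval of 120 to 1713 that covers counting error alone. edgeR gave an adjusted p of 9.73e-10, and its fitted log2 fold change of 8.26 depends on the prior count. Without 1 library at a time and under the other alternatives the fitted value lay between 5.66 and 9.12 and the call held.

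Liver is the main known source of hepcidin, so hepatocyte markers stand beside it. Of 9 hepatocyte markers in the table, 7 were below an FPKM of 1 in each group, albumin (Alb) among them with at most 0.27. The other 2 were Serpina1 and Ttr. Serpina1, a protease inhibitor of the acute phase that other cells also make, carried the summed level, at an FPKM of 14.8 to 16.4 in sham and 38.9 to 42.0 in SNI. Ttr, which carries thyroid hormone and retinol, was at 1.44 to 1.83 in sham, 0.56 to 1.27 in SNI and 2.15 to 2.48 with G15, a log2 fold change of -0.91 (edgeR adjusted p = 0.0571) in SNI against sham and of 1.39 (edgeR adjusted p = 0.022) in SNI + G15 against SNI.

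Haptoglobin, the haemoglobin-binding protein, showed FPKM values of 1.88, 1.77 and 1.86 in sham and 4.60, 4.86 and 4.29 in SNI. The groups did not overlap, and Hp rose with a log2 fold change of 1.29 ± 0.14 (SE; edgeR adjusted p = 3.45e-05). The read counts behind it were 39 to 41 in sham and 94 to 107 in SNI.

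Lipocalin 2 was at an FPKM of 10.2, 12.0 and 10.4 in sham and 23.6, 22.8 and 24.3 in SNI. Its log2 fold change was 1.08 ± 0.08 (SE; edgeR adjusted p = 1.47e-06), again without overlap. Ceruloplasmin was at 11.5, 10.6 and 9.37 in sham and 15.8, 16.9 and 16.5 in SNI, a log2 fold change of 0.62 ± 0.07 (SE; edgeR adjusted p = 3.04e-05). None of its 9 gene counts is whole. Division of reads among the 4 transcripts of Cp alone would leave the gene count whole. How its reads were divided with other sequences was not tested.

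Markers of several cell types moved with these 4 genes. Of 9 macrophage markers, 8 rose in SNI, and their summed FPKM went from between 124 and 134 in sham to between 282 and 302. Of 9 tested neutrophil markers, 7 rose and Mpo and Elane did not, the sum going from between 143 and 170 to between 225 and 262. Ltf was not tested, with 4 reads over the SNI libraries and 0 in the sham and SNI + G15 libraries. All 7 tested erythroid markers rose, from a summed FPKM of 447 to 526 to one of 1425 to 1469. Other lists moved too: 4 of 6 Schwann cell markers fell, from a summed FPKM of 6003 to 6142 to one of 3579 to 3659, 5 of 8 neuronal markers fell and 2 rose, and 3 of 4 tested mesothelial and arachnoid markers fell and 1 rose. The part of these cell types in the changes of the members and of the lists described later was not tested.

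The members for uptake, storage and export, Tfrc, Slc11a2, Fth1 and Slc40a1, did not pass the test in this comparison. Tfrc was at an FPKM of 28.2, 28.4 and 24.5 in sham and 29.5, 30.0 and 28.8 in SNI, a log2 fold change of 0.09 ± 0.06 (SE; edgeR adjusted p = 0.192). Slc11a2 was at 8.70, 9.74 and 9.76 in sham and 9.98, 10.7 and 10.4 in SNI, a log2 fold change of 0.07 ± 0.06 (SE; edgeR adjusted p = 0.363). In FPKM, the lowest SNI value of Tfrc and of Slc11a2 lay above the highest sham value. In the read counts that were tested, Slc11a2 overlapped, with 627 reads in SNI replicate 1 and 636 in sham replicate 3, and scaling to depth kept this order. How many of all genes separate in this way was not counted, so no rise is read from it.

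Fth1 was by far the most abundant member, at an FPKM of 3447, 3844 and 3706 in sham and 3704, 3822 and 3488 in SNI. The groups overlapped, and its log2 fold change of -0.03 ± 0.04 (SE; edgeR adjusted p = 0.639) turned positive under some alternatives, none of them called. Its counts are not whole in any library, and how the counting divided reads among near-identical copies of Fth1 was not tested. Slc40a1 was spread widely within sham, with 1.99, 0.28 and 0.05 FPKM, against 1.61, 0.73 and 1.36 in SNI. Although Slc40a1 has 1 transcript, its counts are not whole in any library either, and how its reads were divided was not tested. Its log2 fold change of 0.65 ± 0.76 (SE; edgeR adjusted p = 0.515) became a call of 2.90 with an adjusted p of 0.00422 without sham replicate 1. SNI + G15 against sham gave 1.13 ± 0.73 (SE; adjusted p = 0.242), and 3.38 (adjusted p = 8.86e-04) without the same library. Hpx had 6, 17 and 10 reads in sham and 14, 8 and 8 in SNI, and did not pass the test over all 19823 genes with a count (edgeR adjusted p = 0.801), where 34% of genes were called.

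**Figure D2:**
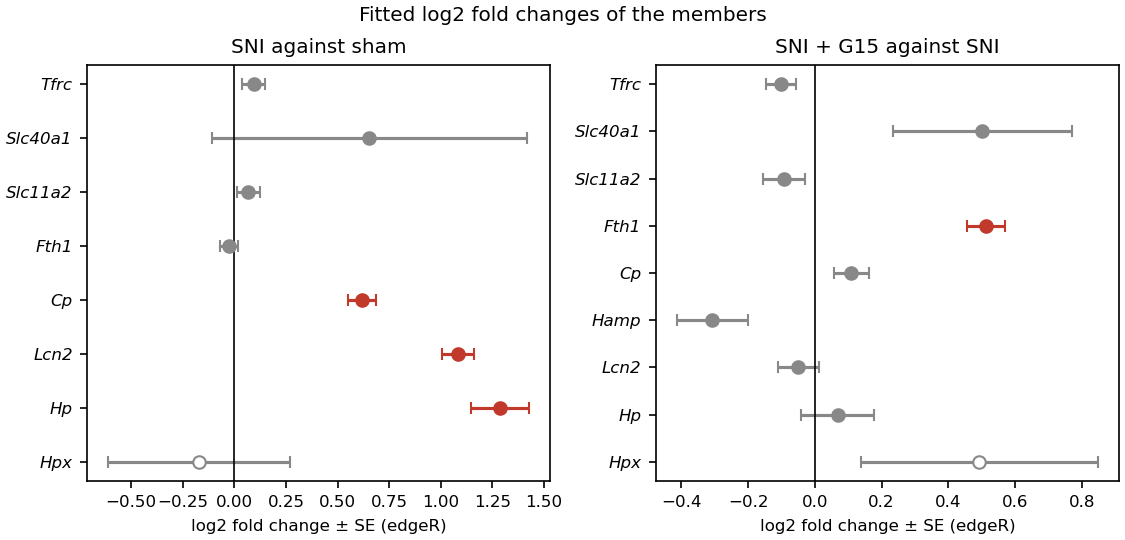
Fitted log2 fold changes of the members with their SE for SNI against sham (left) and SNI + G15 against SNI (right); red points passed an adjusted p of 0.05, grey points did not, and the open point is Hpx from the fit over all genes with a count. Hamp is left out on the left because its fitted value depends on the prior count, and Cp, Lcn2 and Hp stand to the right of 0 there, whereas on the right Fth1 alone is red.

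The second comparison asked what G15 did after injury. In SNI + G15 against SNI, 1 of the 8 tested members rose, Fth1, and none fell. At an unadjusted p below 0.05 Hamp fell too, and with DESeq2 or limma the counts were again 1 and 0. Among all genes 7.98% rose and 7.25% fell, and the median log2 fold change was 0.00957 over the members and 0.00631 over all genes. This comparison shares its SNI libraries with the first.

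Fth1 was at an FPKM of 4992, 4943 and 5633 with G15, above all SNI values of 3488 to 3822. Its log2 fold change was 0.51 ± 0.06 (SE; edgeR adjusted p = 8.36e-04). Short genes were higher as a class in this comparison: the 1456 tested genes with an effective length under 1000 bases had a median of 0.22 on the log2 scale and 24% of them rose, and Fth1 has an effective length of 806 bases. With the trend of each library with effective length removed, an alternative chosen after seeing the data, Fth1 had a log2 fold change of 0.33 (adjusted p = 1.37e-04). The ferritin light chain Ftl1, the other ferritin subunit, was at 1072, 1080 and 1120 in SNI and 1244, 1431 and 1519 with G15. Its log2 fold change was 0.37 ± 0.07 (SE; edgeR adjusted p = 0.00909), and 0.20 (adjusted p = 0.0171) with the length trend removed.

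Hamp was lower in each SNI + G15 library than in each SNI library, with 245 to 332 reads against 340 to 376. The ratio of read counts, scaled to depth, was 0.802, with an exact 95% interval of 0.732 to 0.878 for counting error. The log2 fold change of -0.31 ± 0.11 (SE) did not pass the test over all genes (edgeR adjusted p = 0.0843), although without SNI + G15 replicate 3 it was -0.44 (adjusted p = 0.00563). Hamp is also a short gene, with an effective length of 330 bases, and with the length trend removed it was -0.68 (adjusted p = 3.33e-04).

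No other member passed the test in this comparison. Cp was at 17.9, 18.3 and 16.4 with G15, for a log2 fold change of 0.11 ± 0.05 (SE; edgeR adjusted p = 0.179), or 0.15 (adjusted p = 0.044) without SNI + G15 replicate 3. Lcn2, at 21.5, 23.4 and 22.7, had a log2 fold change of -0.05 ± 0.06 (SE; edgeR adjusted p = 0.616), and -0.22 (adjusted p = 0.0572) with the length trend removed. Hp, at 4.93, 4.76 and 4.59, had one of 0.07 ± 0.11 (SE; edgeR adjusted p = 0.706), turning to -0.04 with the length trend removed.

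Tfrc was at 28.5, 27.2 and 25.8 with G15 and changed by -0.10 on the log2 scale ± 0.05 (SE; edgeR adjusted p = 0.159). Slc11a2 was at 9.72, 10.3 and 8.62, overlapping with SNI. Slc40a1 was at 1.84, 1.37 and 1.98, with a log2 fold change of 0.50 ± 0.27 (SE; edgeR adjusted p = 0.23), as large as that of Fth1 but with a wider SE. Hpx had 13, 11 and 18 reads, a log2 fold change of 0.49 ± 0.35 (SE), and was not called (adjusted p = 0.425 over 19855 genes, of which 9.63% were called).

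Against sham, 5 of the 8 members were higher in SNI + G15 and none was lower, where 21.4% of all genes rose and 21.9% fell. They were Hamp, Hp, Lcn2, Cp and Fth1, with the sham libraries shared with the first comparison. Fth1 had a log2 fold change of 0.46 ± 0.06 (SE; edgeR adjusted p = 2.57e-04) and Hp one of 1.33 ± 0.14 (SE; edgeR adjusted p = 3.97e-05). The ratio of Hamp read counts, scaled to depth, to sham was 283, with an exact 95% interval of 96.4 to 1373.

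Hepcidin control genes were followed beside Hamp, from a list of 20 genes of the BMP, SMAD and interleukin-6 pathways, of which 17 were tested. In SNI against sham, 9 rose and 2 fell, or 52.9% and 11.8%, where 23.3% and 22.4% of all genes did so. The median log2 fold change of the 17 was 0.16. Il6, the cytokine that raises hepcidin through Stat3, had 1 read in all sham libraries and 162 in the SNI libraries, a ratio of read counts, scaled to depth, of 162 with an exact 95% interval of 28.7 to 6437. Smad1, which carries BMP signals to the nucleus, rose from 8.74, 8.90 and 9.89 FPKM to 19.9, 20.3 and 21.5 (log2 fold change 1.14 ± 0.06 SE; edgeR adjusted p = 9.78e-08). Tmprss6, a protease that lowers hepcidin, rose from at most 0.28 to between 0.78 and 1.02 FPKM.

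Other members of that list fell. Bmp6, the BMP ligand known to raise hepcidin in iron loading, fell from 9.66, 9.93 and 10.5 FPKM to 4.78, 5.87 and 6.11 (log2 fold change -0.87 ± 0.09 SE; edgeR adjusted p = 2.81e-05). Bmpr1b, a type I BMP receptor, fell by 0.41 on the log2 scale but was not called with limma (adjusted p = 0.0725). In SNI + G15 against SNI, 1 of the 17 fell and none rose, or 5.88% and 0%, where 7.25% and 7.98% of all genes did so. It was Il6, with 90 reads against 162 and a log2 fold change of -0.83 ± 0.19 (SE; edgeR adjusted p = 0.0221). With DESeq2 none of the 17 was called, and at an unadjusted p below 0.05 in edgeR 2 rose and 3 fell.

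**Figure D3:**
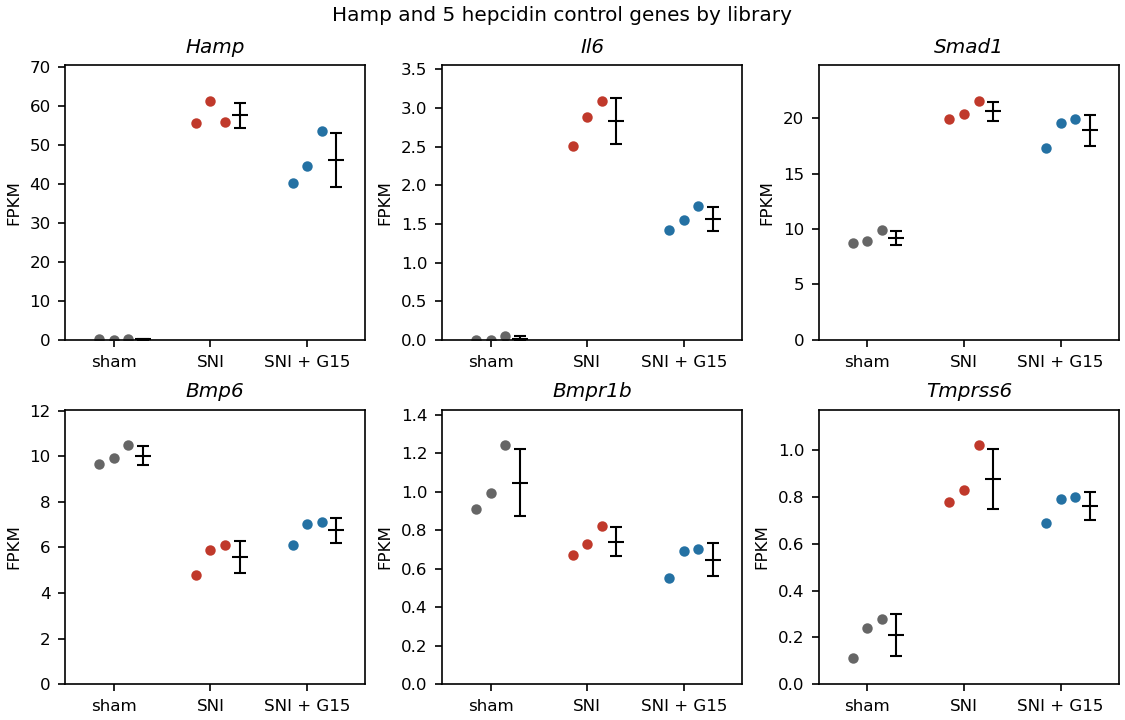
FPKM (vertical axes, each from 0) of Hamp and of the 5 genes named from the hepcidin control list in the 3 sham, 3 SNI and 3 SNI + G15 libraries, with mean ± SD beside the points. Hamp, Il6, Smad1 and Tmprss6 are higher in every SNI library than in every sham library, Bmp6 and Bmpr1b are lower, and Il6 is lower in SNI + G15 (1.42 to 1.73) than in SNI (2.51 to 3.09).

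Of the 12 iron uptake and release genes, 10 were tested. In SNI against sham 6 rose and 2 fell, or 60% and 20%, where 23.3% and 22.4% of all genes did so. The median log2 fold change of the 10 was 0.38. Steap1, a metalloreductase of the family that reduces ferric iron, rose from 0.50, 0.77 and 0.78 FPKM to 2.13, 2.54 and 2.64. Slc39a14, a metal importer that takes up iron not bound to transferrin, rose by 0.56 ± 0.05 (SE) on the log2 scale and Steap4 by 0.49 ± 0.06. Steap3, the ferrireductase of transferrin endosomes, fell by 0.44 ± 0.05 on the log2 scale, and Mcoln1, a lysosomal cation channel, fell by 0.29 ± 0.05.

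In SNI + G15 against SNI, 4 of these 10 rose and none fell, or 40% and 0%, where 7.98% and 7.25% of all genes did so. Tf, the iron carrier of plasma, was at 35.2, 35.3 and 36.0 FPKM in SNI and at 49.9, 50.8 and 54.6 with G15, with a log2 fold change of 0.56 ± 0.05 (SE; edgeR adjusted p = 2.70e-04). Steap1 rose by 0.70 ± 0.14 on the log2 scale and Steap4 by 0.35 ± 0.06, so that their SNI + G15 values lay above SNI as SNI lay above sham.

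The heme transport and breakdown list had 15 tested genes, of which 3 rose and 4 fell in SNI, or 20% and 26.7%, near the 23.3% and 22.4% of all genes. Hmox1, the inducible heme oxygenase that opens the heme ring, rose from 10.4, 13.7 and 13.9 FPKM to 22.3, 22.3 and 22.7 (log2 fold change 0.79 ± 0.09 SE; edgeR adjusted p = 4.86e-05). Hebp2, a heme-binding protein, fell by 0.58 ± 0.05 on the log2 scale, and Flvcr2, a membrane transporter, fell by 0.57 ± 0.12. Blvrb, a biliverdin reductase, and Slc46a1, a folate and heme importer, rose by 0.25 and 0.15, and Hmox2, the constitutive heme oxygenase, fell by 0.23 on the log2 scale. Slc46a1 was not called with DESeq2 (adjusted p = 0.101).

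With G15, 3 of the 15 rose and none fell, or 20% and 0%, where 7.98% and 7.25% of all genes did so. Hmox1 reached 44.0, 45.9 and 47.6 FPKM, a log2 fold change of 1.04 ± 0.05 (SE; edgeR adjusted p = 1.15e-05) over SNI, with no overlap, and 0.97 with the length trend removed. Cd163, the macrophage receptor that takes up haptoglobin bound to haemoglobin, was at 2.89, 3.09 and 3.13 FPKM in SNI and 3.87, 4.14 and 4.33 with G15 (log2 fold change 0.48 ± 0.06 SE; edgeR adjusted p = 0.00146), and it was not called between SNI and sham. Abcg2, an efflux pump that also carries porphyrins, rose by 0.38 ± 0.06 on the log2 scale. Cd163 is also on the macrophage list, whose summed FPKM was 304 to 331 with G15 and of which 2 of 9 rose. All 6 fibroblast markers rose, from a summed FPKM of 450 to 452 to one of 606 to 630. Of 6 Schwann cell markers 3 rose, and of 4 tested mesothelial and arachnoid markers 2 rose and 1 fell. Msln, at most 0.13 FPKM in SNI, had a log2 fold change of 4.12, and Krt19 one of -1.53. The part of these cell types in the G15 changes was not tested.

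Of 9 heme synthesis genes, 2 rose and 2 fell in SNI, or 22.2% each way, near the share of all genes. Alas2, the erythroid form of the first enzyme of the pathway, rose from 1.67, 1.80 and 2.03 FPKM to 6.07, 6.37 and 6.50 and was at 2.54, 2.75 and 3.05 with G15 (log2 fold change -1.17 ± 0.09 SE against SNI; edgeR adjusted p = 1.38e-04). It was the only gene of the list called with G15, and all 7 tested erythroid markers, Alas2 among them, fell with it. Alad, the next enzyme of the pathway, fell by 0.29 ± 0.09 on the log2 scale in SNI.

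Of 12 tested mitochondrial iron genes, 3 fell and none rose in SNI: Iscu, the scaffold on which iron-sulphur clusters are built, by 0.40 ± 0.04 on the log2 scale, Isca1 by 0.25 ± 0.04 and Glrx5 by 0.15 ± 0.06. This is 25% of the list, near the 22.4% of all genes that fell, and Glrx5 was not called with DESeq2 (adjusted p = 0.0748) or limma (adjusted p = 0.0724). With G15, 1 fell, the erythroid-rich mitochondrial iron importer Slc25a37, by 0.32 ± 0.09 (SE; edgeR adjusted p = 0.0452); it was not called with the length trend removed (adjusted p = 0.091), with DESeq2 (adjusted p = 0.0838) or with limma (adjusted p = 0.137). In the storage and chaperone list, 4 genes were tested in SNI against sham, where Ftl1 rose by 0.31 ± 0.04 and Pcbp2, an iron chaperone, fell by 0.14 ± 0.04 on the log2 scale but was not called with limma (adjusted p = 0.0602). That is 25% each way, near the 23.3% and 22.4% of all genes. None of the 3 iron sensing genes, the iron regulatory proteins Aco1 and Ireb2 and their regulator Fbxl5, passed the edgeR test in either comparison (log2 fold changes of 0.09 to 0.13 in SNI against sham), and none was called with DESeq2 or limma. At an unadjusted p below 0.05, Ireb2 was higher in SNI against sham and lower in SNI + G15 against SNI. Both tested siderophore handling genes fell in SNI, the lipocalin 2 receptor Slc22a17 by 0.33 ± 0.04 on the log2 scale and Bdh2 by 0.57 ± 0.17, and neither was called with G15. Among all genes 22.4% fell in SNI, and 2 genes are too few for a share to be read. Bdh2 was not called with DESeq2 (adjusted p = 0.0763).

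Over all 8 lists outside the members, 72 of 80 genes were tested. In SNI against sham 21 rose and 16 fell, and in SNI + G15 against SNI 8 rose and 3 fell. These are 29.2% and 22.2% of the 72, where 23.3% and 22.4% of all genes did so, and 11.1% and 4.17%, where 7.98% and 7.25% of all genes did so. The median log2 fold changes were 0.02 and 0.01, beside 0.00102 and 0.00631 over all genes.

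**Figure D4:**
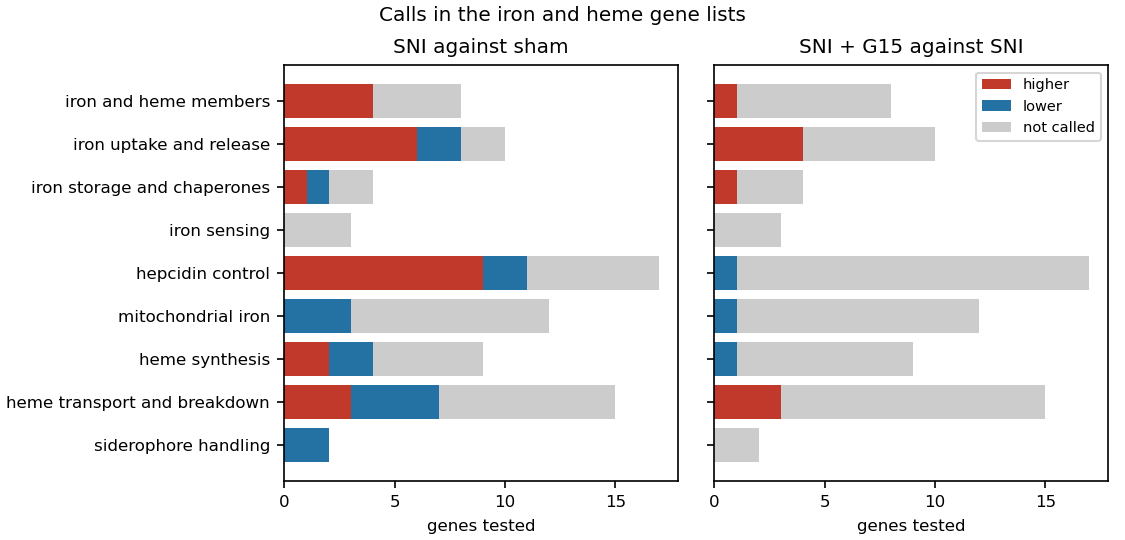
Number of tested genes (horizontal axis) of the member list and 8 iron and heme lists that rose, fell or were not called (edgeR, adjusted p of 0.05) in SNI against sham and SNI + G15 against SNI. In SNI the uptake and release list has 6 higher and 2 lower of 10 and the hepcidin control list 9 higher and 2 lower of 17, and with G15 these become 4 and 0 of 10 and 0 and 1 of 17. Among all tested genes, 23.3% were higher and 22.4% lower in SNI, and 7.98% and 7.25% with G15.

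Transcripts were compared for the members that have more than 1: Cp with 4, and Tfrc and Slc11a2 with 3 each. Of 16 member transcripts, 13 reached 1 FPKM in at least 1 library. In SNI against sham 4 of the 13 rose (edgeR over 25998 transcripts, of which 10.3% were called), those of Hamp, Hp and Lcn2 and 1 of Cp. In SNI + G15 against SNI none of the 13 was called, 2 had an unadjusted p below 0.05, and 0.662% of all transcripts were called. The 2 were a minor Tfrc transcript, XM_006248462.3, and the single transcript of Fth1, whose log2 fold change of 0.51 ± 0.07 (SE; adjusted p = 0.0685) matches that of the gene but did not pass over all transcripts.

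The 2 main Cp transcripts had different fitted changes after injury, and their difference was tested only through their shares. NM_012532.2 went from 21.4, 23.3 and 23.1% of the Cp FPKM in sham to 29.0, 26.9 and 35.5% in SNI, and its own level rose by 1.05 ± 0.14 (SE) on the log2 scale (edgeR adjusted p = 0.0113). NM_001270961.1 went from 72.1, 69.3 and 69.4% to 64.9, 63.8 and 58.1%, and its log2 fold change of 0.44 ± 0.10 (SE) did not pass the test (adjusted p = 0.0613). The shares did not overlap, and the exact two-sided permutation test gave 0.1 for each, the smallest p that 3 against 3 allows. In SNI + G15 the first held 34.3, 30.2 and 42.5% and the second 58.2, 63.0 and 49.1%, both overlapping with SNI.

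For Slc11a2, NM_013173.2 held 55.8 to 60.5% in sham and 52.1 to 54.2% in SNI, and XM_006242311.3 held 34.5 to 39.6% and 40.8 to 42.7% (exact permutation p = 0.1 each). Their SNI + G15 shares, 49.7 to 63.6% and 36.4 to 49.6%, overlapped with both sham and SNI. Neither transcript was called in level in SNI against sham (edgeR adjusted p = 0.95 and 0.31). For Tfrc, NM_022712.1 ranged over 79.9 to 92.8% for sham, 78.7 to 81.6% for SNI and 82.2 to 87.3% for SNI + G15, with overlap between sham and SNI. These shares come from reads that the estimate divides among overlapping transcripts.

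**Figure D5:**
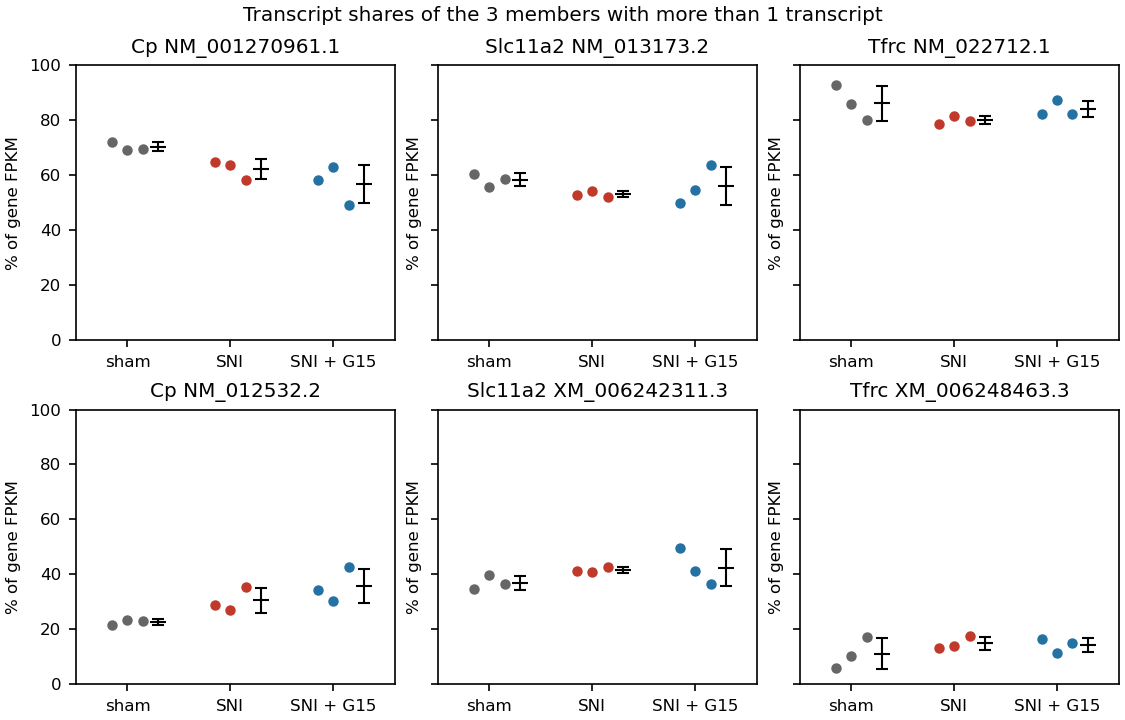
Share of the gene's FPKM (vertical axis, percent) held by the 2 most abundant transcripts of Cp, Slc11a2 and Tfrc in each library, with mean ± SD beside the points. The Cp share of NM_012532.2 is higher and that of NM_001270961.1 lower in every SNI library than in every sham library.

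The members also differed in which genes their levels followed over the 9 libraries. Likeness was the Pearson correlation of log2(FPKM + 1), given as a description, since the libraries share the group structure. The closest to Hamp were Sdc1, Ankrd1 and Adcyap1 (r of 0.999, 0.999 and 0.999), and 116 genes were above 0.99. Those of Hp were Mmd, Gas7 and Pde6b (r of 0.997, 0.997 and 0.996), with 103 genes above 0.99, and those of Lcn2 were Azin2, Irf8 and Bin2 (r of 0.997, 0.995 and 0.995), with 28. Those of Cp were Ncbp3, Slc39a8 and Itgb1 (r of 0.99, 0.99 and 0.989), Slc39a8 being a zinc and iron importer of the uptake list.

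Fth1 was closest to Mgp, S100a4 and Rps3a (r of 0.992, 0.986 and 0.986), of which 1 gene was above 0.99. Tfrc was closest to Synpr, Lamp2 and Zfp386 (r of 0.978, 0.961 and 0.953), Slc11a2 to Adam9, Slc37a1 and Akt1 (r of 0.963, 0.938 and 0.930) and Slc40a1 to Surf1, Wdr43 and Cspp1 (r of 0.947, 0.942 and 0.936). No gene was above 0.99 for these 3 or for Cp.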

How the data were processed

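RNA of ipsilateral DRG was sequenced in 3 sham, 3 SNI and 3 SNI + G15 samples. FPKM values, scaled to library size and transcript length, were deposited for genes and for transcripts, and the gene FPKM is the sum over its transcripts. The authors also deposited expected counts (estimated read counts), which are not normalized and of which 68.2 to 68.9% of the values above 0 are whole, to within 1e-08, in a library. Columns named for a control were taken as sham, the only group the other names leave. The aligner is not given in the sources used here, and the labels name a mouse build although gene IDs are rat NCBI IDs; 18599 of 20194 IDs matched RefSeq GRCr8.

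After rounding, the expected counts went into the quasi-likelihood test of edgeR 4.0.16 under R 4.3.3, scaled by TMM. Each fit held the libraries of the 2 groups compared and the 14305 genes that reached 1 FPKM in any library, with Benjamini-Hochberg adjustment over all of them. The SE of a log2 fold change is its size over the root of F. DESeq2 1.42.0 and limma 3.58.1 were alternatives, and the methods of the study name DESeq2. Transcripts were tested in the same way. The scripts were tested on simulated data.

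The named genes are the 9 members and, of each list, the called gene with the largest change in each direction in the 2 comparisons with SNI (up to 3 for lists of 10 or more), the 3 genes most like each tested member, and markers beside a member. Slc22a17, Aco1, Ireb2 and Fbxl5 fall outside this rule and were chosen after their values were seen, to account for lists of 3 or fewer tested genes. The members and lists were chosen with earlier results of these data known. Sample numbers did not pair the libraries: 0 of 9 correlations of same-numbered deviations were above 0.1 (-0.128 to 0.069). Deposited TPM, group averages and the values behind the authors' quality plots were not used. Intervals cover counting error alone.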

Additional observations from a re-analysis of the deposited data

How the results depend on the processing

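Of the 27 log2 fold changes of members, 18 kept direction and side of the threshold under each alternative run. Over 375 values, 356 did so, 5 became calls and 14 changed sign. No call was lost in them, and the fold change requirement given below was not among them. The 5 were Slc40a1 without sham replicate 1 in both comparisons with sham, and in SNI + G15 against SNI, Cp without SNI + G15 replicate 3 and Hamp without that library or with the length trend removed, all given above. The cause was not tested. Sign changes were in values that were never called. Fth1 in SNI against sham became 0.00278 with limma at either pseudocount, 0.02 (0.018) with the length trend removed, and 0.00756 and 0.00699 without sham replicate 2 or SNI replicate 3 (-0.0722 to 0.00756 with 1 library left out). Hpx in SNI against sham became 0.28 without sham replicate 2 (-0.491 to 0.28 with 1 library left out). In SNI + G15 against sham, Tfrc became 0.01 (0.0104 and 0.0108) with limma, 0.0434 with the length trend removed, and 0.00642 and 0.0112 without sham replicate 2 or SNI + G15 replicate 3 (-0.0919 to 0.0112 with 1 library left out), and Slc11a2 became 0.0195 and 0.0212 with limma. Hp in SNI + G15 against SNI became -0.0426 with the length trend removed.

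The requirement of an absolute log2 fold change of 0.5 lowered the genes called from 6537 to 2017, from 2179 to 525 and from 6186 to 2536 in SNI against sham, SNI + G15 against SNI and SNI + G15 against sham, and the pathway genes called from 37 to 13, 11 to 5 and 34 to 16. Among the members it took out Fth1 in SNI + G15 against sham, at a log2 fold change of 0.46. In SNI + G15 against SNI, genes called lay between 893 (without SNI replicate 3) and 2333 with 1 library left out, with 1098 without SNI replicate 1 and 925 without SNI replicate 2. Members called lay between 1 and 3 (without SNI + G15 replicate 3), and were 2 with the length trend removed. Fitted with the replicate number as a block, which the check of pairing did not bear out, 1292 genes and 1 member were called there, 6440 and 4 in SNI against sham, and 5735 and 5 in SNI + G15 against sham. Depth limits Hpx and, in sham, Hamp, which rest on few reads.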
